A study of Mus musculus with 6 samples.

Results

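In *Srr2* del/del neural stem cell cultures, 808 regions near transcription start sites had an ATAC-seq peak in all 3 early differentiating libraries (DIFF) and in no proliferating library (PROLIF). They were chosen by these peak calls, so their presence and absence are a description and were not tested. Peaks of the 6 libraries on chromosomes 1 to 19 were merged into 116783 regions, of which 34911 came within 3 kb of a GENCODE M21 start site (GRCm38), and 2.31% of the latter met the rule. The mirror image, a peak in all 3 PROLIF and no DIFF library, held for 411 of the same regions (1.18%), while 18286 had a peak in all 6 libraries. Each DIFF-only region was assigned to the start nearest to its summit. The nearest start was the main start of a protein-coding gene for 117 regions, 1.15% of the regions of that class. It was another, alternative start of a coding gene for 404 regions (2.69%) and the start of a noncoding gene or pseudogene for 287 regions (2.94%).

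ATAC-seq uses a transposase that cuts and tags accessible DNA. Cultures came from the adult subependymal zone (SEZ) of mice labelled 10 weeks old, and all of them lacked *Srr2*, an enhancer of the stem cell factor gene *Sox2* deleted by CRISPR-Cas9 in mice bred from 2 founders. PROLIF cultures were labelled 2 DIV (days in vitro, where the series text gives 3 DIV) and grown on Matrigel with the mitogen bFGF (basic fibroblast growth factor). DIFF cultures were labelled 2 + 1 DIV and spent the last day without mitogens in 2% fetal bovine serum. Each state had 3 libraries, numbered 1, 2 and 4. The paper counts 3 independent cultures of this genotype as its biological replicates for ATAC-seq. Nothing in the labels says which came from separate animals, and wild-type cultures were not analysed here. Mitogen removal and serum addition came together in DIFF, so their parts cannot be told apart.

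Promoters of vertebrate genes are of a few kinds. Many lie in CpG islands, are accessible in most cell types and carry sites for general factors such as SP/KLF, NRF1, ETS and NFY. Others are CpG-poor and are opened in particular cell types, often together with enhancers that lie upstream or inside introns. Many genes also have alternative start sites, and noncoding transcripts frequently start at or near enhancers. Nuclear factor I (NFI) proteins bind CpG-poor sites of this second kind and are known for roles in glial differentiation and in adult neural stem cells.

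The DIFF-only regions were CpG-poor like the second kind, with a median ratio of observed to expected CpG of 0.187. PROLIF-only regions near starts (0.207) and DIFF-only regions over 3 kb from a start (0.163) were similar. Only 15.0% of the DIFF-only regions near starts covered a start, so their letters do not mark them as promoters. The windows shown are 200 bases centred on the summit, on the strand of the nearest start, read from the RefSeq GRCm38.p6 assembly, with the motif in capitals. The best-ranked region of all lay at the main start of *Tspan18*, a tetraspanin of the cell membrane (chr2:93227811-93228010, minus strand). Its capitals mark a match to the CArG box of serum response factor, with the homeodomain core TAATTA inside it, about 48 bp from the summit. A CArG box was no more frequent in DIFF-only windows (0.743%) than in all near regions (0.868%) or in those with a peak in all 6 libraries (0.902%).
Tspan18: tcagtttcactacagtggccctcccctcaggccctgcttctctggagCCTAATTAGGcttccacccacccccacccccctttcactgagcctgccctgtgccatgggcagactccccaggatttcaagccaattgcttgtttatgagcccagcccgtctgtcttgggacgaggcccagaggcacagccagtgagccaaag

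The next windows show the NFI site TTGGCA, which is 1 arm of the full palindrome NFI dimers prefer, or TGCCAA where it reads on the opposite strand, in the best-ranked regions of each class that held it. Regions touching an untranslated region were passed over. For the main class these were *Plin4* (chr17:56110628-56110827, minus strand), in which the site lies 1 bp from the summit, and *Spx* (chr6:142411177-142411376, plus strand), in which it occurs at 2 positions.
Plin4: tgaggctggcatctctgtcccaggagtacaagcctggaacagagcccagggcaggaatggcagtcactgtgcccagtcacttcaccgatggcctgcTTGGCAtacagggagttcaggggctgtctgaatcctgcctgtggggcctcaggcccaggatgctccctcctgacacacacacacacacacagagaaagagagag
Spx: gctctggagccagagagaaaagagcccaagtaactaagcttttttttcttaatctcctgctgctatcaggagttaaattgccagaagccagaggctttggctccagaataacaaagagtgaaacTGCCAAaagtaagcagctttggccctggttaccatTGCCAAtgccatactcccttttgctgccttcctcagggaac

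For the alternative class they were *Lrrtm1* (chr6:77240544-77240743, plus strand) and *Itsn1* (chr16:91862091-91862290, plus strand). In both, the sites lay towards the ends of the window, between 86 and 96 bp from the summit.
Lrrtm1: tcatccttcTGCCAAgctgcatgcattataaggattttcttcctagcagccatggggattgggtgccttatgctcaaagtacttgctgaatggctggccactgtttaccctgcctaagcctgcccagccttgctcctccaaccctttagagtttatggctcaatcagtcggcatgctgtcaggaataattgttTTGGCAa
Itsn1: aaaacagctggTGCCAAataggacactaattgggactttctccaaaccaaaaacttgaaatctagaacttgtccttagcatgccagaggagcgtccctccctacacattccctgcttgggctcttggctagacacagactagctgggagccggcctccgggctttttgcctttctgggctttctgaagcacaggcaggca

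For the noncoding class they were the snoRNA gene *Gm24787* (chr15:73352716-73352915, plus strand) and the pseudogene *Dynlt1-ps1* (chr6:135351759-135351958, minus strand).
Gm24787: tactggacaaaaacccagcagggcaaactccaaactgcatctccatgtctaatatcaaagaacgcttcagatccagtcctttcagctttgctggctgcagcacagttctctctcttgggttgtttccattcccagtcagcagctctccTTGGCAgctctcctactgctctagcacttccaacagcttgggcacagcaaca
Dynlt1-ps1: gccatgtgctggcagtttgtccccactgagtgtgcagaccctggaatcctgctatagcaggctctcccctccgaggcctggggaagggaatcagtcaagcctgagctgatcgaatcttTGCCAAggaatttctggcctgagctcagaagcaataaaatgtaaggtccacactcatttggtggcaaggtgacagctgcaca

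Peak strength is given as the percentile of the peak's −log10 p within its own library's list and as the fold enrichment over the local background of that library. The lists held 60006 to 88039 peaks. DIFF replicate 4 had the deepest background, 6.01 reads at percentile 1 of the local backgrounds, against 2.85 to 3.63 reads in the other 5 libraries. A region without a listed peak had a signal under the caller's threshold, which is not the same as closed chromatin. As these were bulk cultures, accessibility in fewer cells and weaker accessibility per cell cannot be told apart. Among marker genes of the lists used, 13 of 15 neural stem and progenitor genes and 22 of 24 astrocyte genes had a peak in all 6 libraries within 3 kb of the main start. The same was true of 16 of 25 early neuron, 12 of 22 oligodendrocyte, 8 of 14 ependymal, 4 of 15 endothelium and pericyte, and 2 of 14 microglia genes.

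Most DIFF-only regions were weak peaks. Their median percentile was 32.3, 32.3 and 44.8 in DIFF replicates 1, 2 and 4, compared with 81.1, 80.3 and 84.4 for the near regions with a peak in all 6 libraries. The median fold enrichment was 3.88, 4.30 and 3.85, and the median pileup at the summit was 20, 19 and 30 reads, where the weakest 5% of listed autosomal peaks had up to 13, 12 and 17 reads. The percentile exceeded 50 in all 3 DIFF lists for 84 regions (10.4%), 60 for 39 and 70 for 10, whereas 81.8% of the regions present in all 6 libraries exceeded 50 in the 3 DIFF lists. Low ranks were not particular to these regions. DIFF-only regions over 3 kb from a start had median percentiles of 31.4, 34.3 and 42.6 in DIFF replicates 1, 2 and 4. PROLIF-only regions near starts had medians from 33.7 to 46.3 in the PROLIF lists. DIFF replicate 4, the deepest library, gave the highest percentile in 518 of the 808 regions, against 156 for replicate 1 and 134 for replicate 2. The part of depth in the choice of regions was not tested.

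**Figure D1:**
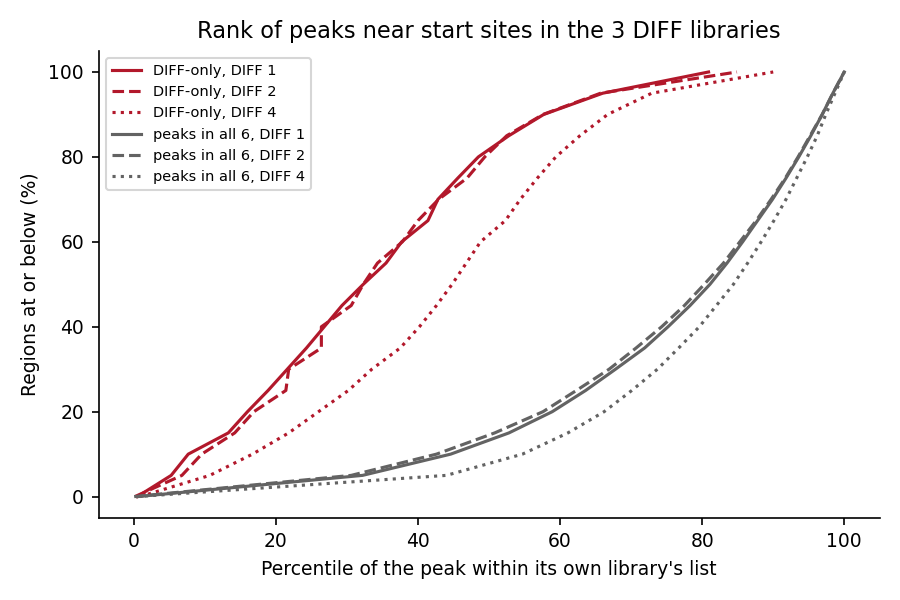
Cumulative share of regions (%, vertical axis) by the percentile of their peak within the list of each DIFF library (horizontal axis), for the 808 DIFF-only regions (red) and the 18286 regions with a peak in all 6 libraries (grey). The red curves lie to the left of the grey ones in each library, with medians of 32.3, 32.3 and 44.8 against 81.1, 80.3 and 84.4.

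The order of the regions was only partly shared between libraries. Spearman's rank correlation of the percentiles over the 808 regions was 0.516 for replicates 1 and 2, 0.553 for 1 and 4 and 0.639 for 2 and 4. Over the regions with a peak in all 6 libraries it was 0.949 to 0.961. These are descriptions over regions, which share libraries and are not replicates, and the DIFF-only regions span a narrower range of ranks. Summits of a DIFF-only region lay within 50 bp of each other in all 3 libraries for 323 regions (40.0%), with a median range of 59 bp.

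Many regions lay just outside the rule. A further 888 near regions had a peak in all 3 DIFF libraries and in 1 PROLIF library, which was replicate 1 for 660, replicate 2 for 161 and replicate 4 for 67. That single PROLIF peak had a median percentile of 23.0 in its list. Another 1008 near regions had peaks in 2 DIFF libraries and no PROLIF library, lacking replicate 1 in 500, replicate 2 in 413 and replicate 4 in 95. At the distance limit, the 5 outermost regions kept were those of *Cst3* and *Ssr3* (edge 2994 bp from a start), *Gm47087* (2988 bp), *1700030L22Rik* (2976 bp) and *Gm28493* (2975 bp). The first 5 left out were those of *Tanc1* (3002 bp), *Nrf1* (3003 bp), *Gm31063* (3005 bp), *Atp6v0a2* (3016 bp) and *2810429I04Rik* (3020 bp). Their percentiles overlapped, from 6.77 to 69.6 inside and from 7.66 to 72.8 outside.

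DIFF-only regions were near start sites but mostly not at them. The median distance from summit to start was 1240 bp, compared with 95 bp for regions with a peak in all 6 libraries. Summits lay within 250 bp of a start in 140 regions (17.3% against 65.8%) and over 1 kb away in 473 (58.5% against 20.2%). The region itself covered a start in 121 (15.0% against 72.4%). In all, 460 summits fell in introns (56.9% against 29.8%), 189 between genes, 75 in exons of transcripts without a coding sequence, 46 in untranslated regions and 38 in coding exons. DIFF-only regions had a median width of 346 bp, compared with 940 bp. The 411 PROLIF-only regions near starts had a similar layout, with a median distance of 1204 bp, 20.9% of summits within 250 bp and a median width of 379 bp.

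**Figure D2:**
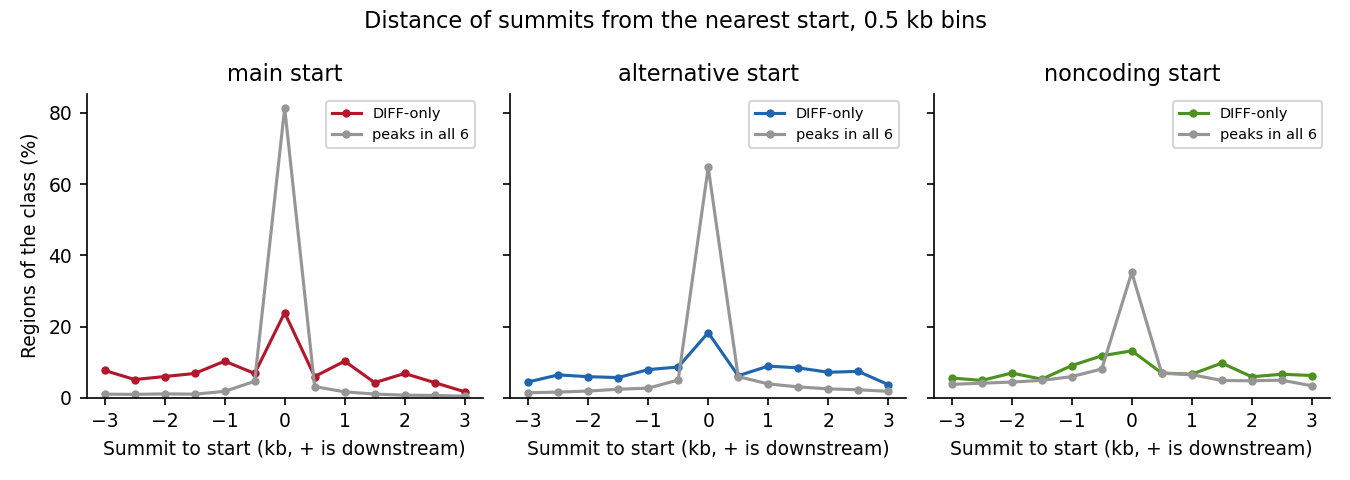
Share of the regions of each start class (%, vertical axis) by the signed distance of the summit from the nearest start (kb, horizontal axis, 0.5 kb bins), for DIFF-only regions (coloured) and regions with a peak in all 6 libraries (grey). The central bin holds 23.9%, 18.3% and 13.2% of DIFF-only regions of the main, alternative and noncoding classes, and the grey curves are higher there in each class.

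Neither did a DIFF-only region usually stand alone at its gene. A region of this kind lay within 3 kb of some start of 555 of 20807 autosomal coding genes (2.67%). Of these genes, 435 (78.4%) also had a region with a peak in all 6 libraries near a start, compared with 65.4% of all coding genes. For 326 of the 404 alternative-start regions (80.7%), the main start of the same gene had such a constant region. Over all 404, the DIFF-only summit lay a median of 20054 bp from the main start of its gene. Among the 117 main-start regions, another region at the same start was present in all 6 libraries for 48 (41.0%), in some for 33 (28.2%) and absent for 36 (30.8%). The gap to the nearest PROLIF peak of any library had a median of 5228 bp, and was at most 200 bp for 25 regions and at most 1 kb for 128 (15.8%).

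For 72 of the 555 coding genes no PROLIF library had a peak near any start. The matching share over all coding genes was not counted, so the 72 cannot be read as many or few. These 72 genes included *H2-DMb1*, *Kcnj5*, *Sema4a*, *Slc13a2*, *Spx* and *C1qc*, all named below. *Lcat* and *Lyz2*, picked after their values were seen, were 2 others. *Lcat* encodes the plasma enzyme that esterifies cholesterol and is made by astrocytes in brain. Its region lay at the main start (summit at −215 bp) and had percentiles of 42.8, 52.7 and 69.6 in DIFF replicates 1, 2 and 4. *Lyz2*, the lysozyme of macrophages, had a summit 95 bp after its main start and percentiles of 77.6, 16.9 and 46.9, so that replicate 1 stood well above replicate 2.

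At main starts, the 10 regions with the highest lowest-percentile over the 3 DIFF lists were those of *Tspan18*, *Lrrc52*, *Plin4*, *Slc13a2*, *Eef1akmt2*, *H2-DMb1*, *Spx*, *9930012K11Rik*, *Kcnj5* and *Sema4a*. A choice by the lowest of 3 percentiles favours regions whose replicates agree. Agreement between replicates is therefore not a result for the best-ranked regions of any class. The *Tspan18* region (chr2:93227714-93228333) had its summit 125 bp before the start. Its percentiles were 80.2, 84.9 and 90.0 and its fold enrichments 8.47, 10.9 and 11.3 in replicates 1, 2 and 4. It ranked in the upper part of each list, although a PROLIF peak lay 534 bp away. *Lrrc52*, an auxiliary potassium channel subunit, had a region 1634 bp inside the gene (chr1:167464970-167465450) with percentiles of 77.2, 68.6 and 72.6 and folds of 6.21, 6.31 and 5.64. In this case the main start also had a constant region, and the nearest PROLIF peak was 1187 bp away.

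*Plin4* encodes a perilipin that coats lipid droplets. Its upstream region (chr17:56110522-56110893, summit at −925 bp) had percentiles of 67.6, 60.5 and 66.2 and folds of 5.87, 6.21 and 5.16. A weaker one inside the gene (chr17:56108677-56108836) had percentiles of 21.3, 4.43 and 13.2. *Slc13a2*, a sodium-coupled transporter of dicarboxylates such as succinate, had a region at −2331 bp (chr11:78424243-78424776) with percentiles of 57.0, 57.6 and 65.8. No other region lay at its main start in any library, and the nearest PROLIF peak was 11755 bp away. *Spx*, the neuropeptide spexin, had percentiles of 52.8, 55.8 and 72.2 at −2164 bp (chr6:142411049-142411666). It stood highest in the deepest library, like most DIFF-only regions. So did *Eef1akmt2*, an elongation factor methyltransferase, with 64.7, 57.0 and 75.4 (chr7:132853977-132854306).

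Among these 10, the summit closest to the start belonged to *H2-DMb1*, which encodes a chain of the molecule that loads peptides onto MHC class II. It lay 43 bp after the start (chr17:34153031-34153199), in an untranslated region, with percentiles of 55.0, 57.6 and 61.7 and folds of 5.61, 7.08 and 5.70. There was no other region at this start in any library, and the nearest PROLIF peak was 17140 bp away. *Sema4a*, a semaphorin, had a summit at −371 bp (chr3:88460949-88461823), percentiles of 61.5, 50.2 and 61.7 and folds of 5.82, 5.93 and 5.70, also with no other region at its start. *Kcnj5*, a G-protein-gated inward rectifier potassium channel, had 52.8, 50.7 and 60.6 at −1353 bp (chr9:32345578-32345908). The 3 replicates lay close together for each of these genes, which the choice by lowest percentile favours. *9930012K11Rik*, a gene known by its clone name, had 62.0, 50.9 and 67.1.

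At alternative starts, the 10 best-ranked regions had lowest percentiles from 66.9 (*Ece2*) to 72.6 (*Cdh23*), where those at main starts ran from 50.2 to 80.2. *Cdh23*, a cadherin of sensory hair cell tip links, had percentiles of 79.4, 72.6 and 79.6 and folds of 8.54, 8.40 and 7.90 in a region inside the gene (chr10:60405641-60406290), 290518 bp from its main start. *Spag1*, an assembly factor of ciliary dynein arms, had 80.9, 71.1 and 76.6 (chr15:36189017-36190035, summit at −116 bp from the start of a processed transcript). Both were of similar rank in all replicates, which the choice by lowest percentile favours. *Lrrtm1*, a postsynaptic adhesion protein, had 70.7, 75.2 and 77.3 in a region 2053 bp from its main start (chr6:77240473-77240924).

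*Nde1*, a dynein regulator required for division of cortical progenitors, had percentiles of 72.9, 75.6 and 70.6 (chr16:14183592-14184236), 20730 bp from the main start. *Itsn1*, a scaffold of endocytosis, had 75.7, 69.4 and 75.1 (chr16:91861840-91862450). *Auts2*, a neurodevelopmental regulator linked to Polycomb complexes, had 76.5, 69.4 and 83.9 (chr5:131457975-131458873). Unlike the others of these 10, it had no region at its chosen main start in any library, and the nearest PROLIF peak was 27540 bp away. *Foxp4*, a forkhead transcription factor, had 69.1, 73.2 and 78.7 with a PROLIF peak 887 bp away. *Intu*, a planar polarity protein of ciliogenesis, had 71.6, 68.8 and 82.7, and *Spire2*, an actin nucleator, had 76.3, 69.6 and 76.8. *Ece2*, an endothelin-converting enzyme family member, had 69.3, 66.9 and 82.9 and was, like *Intu* and most DIFF-only regions, highest in the deepest library.

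**Figure D3:**
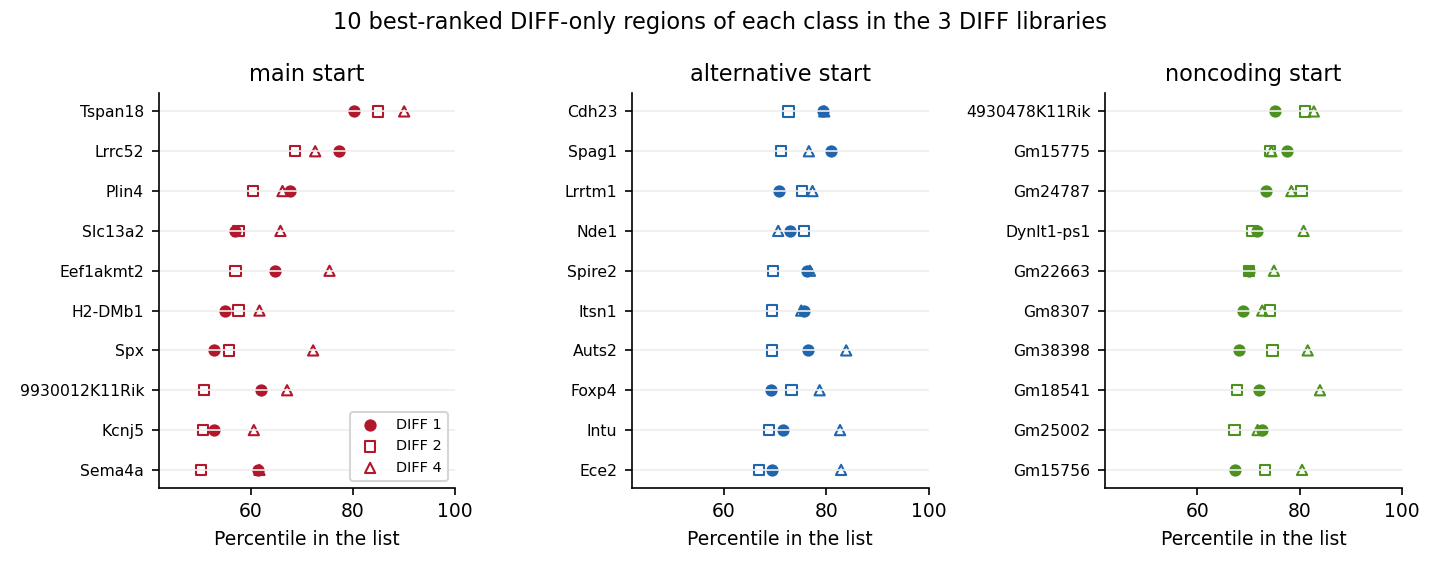
Percentile of the peak within its library's list (horizontal axis) for the 10 best-ranked DIFF-only regions of each start class (rows), with 1 symbol for each DIFF replicate (circle 1, square 2, triangle 4). *Tspan18* runs from 80.2 to 90.0, and the tenth main-start region, *Sema4a*, from 50.2 to 61.7.

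The nearest alternative start was that of a protein-coding transcript for 139 of the 404 regions (34.4%), of a retained-intron transcript for 131 (32.4%), of a processed transcript for 115 (28.5%) and of a transcript subject to nonsense-mediated decay for 19 (4.70%). These are annotation classes and carry no measurement of transcription here. In total, 260 of the 404 summits lay over 10 kb from the main start of their gene and 75 regions came within 3 kb of some main start.

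At noncoding starts, 262 of the 287 regions had no coding start within 3 kb. The genes were 70 lincRNAs, 57 antisense RNAs, 56 processed pseudogenes, 31 genes of the annotation class TEC, 16 snRNA and 16 miRNA genes and smaller classes. The best-ranked was *4930478K11Rik*, an antisense RNA gene (chr12:108326192-108327001), with percentiles of 75.2, 81.1 and 82.8 and folds of 7.76, 10.3 and 8.63. *Gm15775*, another antisense gene (chr8:124330401-124331044), had 77.6, 74.3 and 74.5, and *Gm24787* (chr15:73352473-73353059) had 73.5, 80.4 and 78.4 with a fold of 12.6 in replicate 2. Rank was similar in the 3 replicates for these genes, which the choice by lowest percentile favours. *Dynlt1-ps1* had 71.6, 70.8 and 80.8, and *Gm38398*, a lincRNA gene with its summit at −255 bp (chr9:83097688-83098261), had 68.1, 74.7 and 81.6. The lowest percentile of the other 5 of the 10 (*Gm22663*, *Gm8307*, *Gm18541*, *Gm25002* and *Gm15756*) was between 67.3 and 70.1.

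Around their summits DIFF-only regions were poorer in CpG than constant ones. In the 200 bp window the median GC content was 51.5% and the median ratio of observed to expected CpG was 0.187, compared with 62.0% and 0.705 for regions with a peak in all 6 libraries. The ratio was over 0.6 in 44 DIFF-only regions (5.45%) against 59.2%. By class these were 18 main-start (15.4%), 19 alternative-start (4.70%) and 7 noncoding-start regions (2.44%), against 77.4%, 56.1% and 28.2% of the constant regions. PROLIF-only regions near starts were as CpG-poor, with a median ratio of 0.207 and 7.30% over 0.6. The share of windows mostly soft-masked as repeats was 2.72% against 1.09%.

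The NFI site TTGGCA, searched on both strands, was in 251 DIFF-only windows (31.1%). It occurred in 29.9% of the main, 29.5% of the alternative and 33.8% of the noncoding class, in 13.6% of all near regions and in 11.0% of those with a peak in all 6 libraries. Since base composition differs between these sets, the constant regions with a CpG ratio of at most 0.6 were taken separately, a choice made after the shares were seen. They held it in 18.5%, and the similarly CpG-poor PROLIF-only regions held it in 15.6%. DIFF-only regions over 3 kb from a start held it in 33.3%, so the share near starts was like that far from them. Of the 297 matches in the DIFF-only windows, 60.6% were centred within 50 bp of the summit, with a median of 40.0 bp, against 56.0% and 45.0 bp in the constant regions. All of these are descriptions of regions the calls selected, without a test, and a match is not a bound site.

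**Figure D4:**
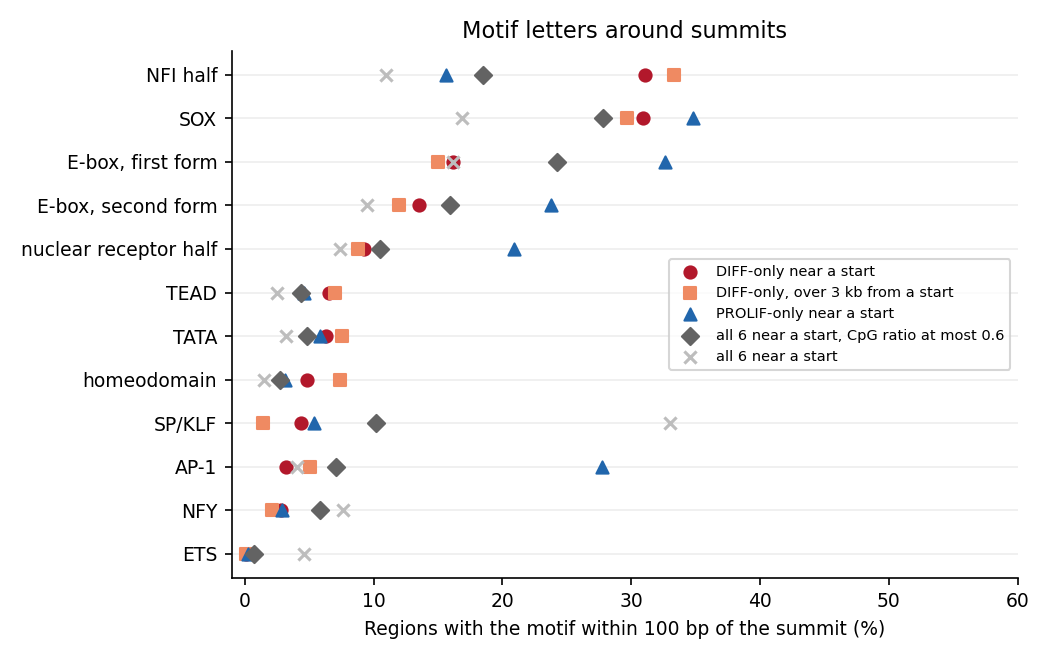
Share of regions (%, horizontal axis) whose 200 bp window holds each motif (rows), for DIFF-only regions near starts (red circles), DIFF-only regions over 3 kb from a start (orange squares), PROLIF-only regions near starts (blue triangles), and regions with a peak in all 6 libraries (grey crosses; dark diamonds where the CpG ratio is at most 0.6). The first E-box form is CAGCTG and the second CAGATG. The red circles lie beside the orange squares for NFI (31.1% and 33.3%), and the blue triangle stands apart for AP-1 (27.7%).

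Other motifs fell into 3 patterns. The first were higher in DIFF-only windows than in constant ones, like NFI. The TEAD site CATTCCA was in 6.56% against 2.50% (3.26% of all near regions), the homeodomain core TAATTA in 4.83% against 1.47% (2.37%) and TATAAA in 6.31% against 3.22% (4.51%). Against CpG-poor constant regions these gaps were smaller, with 4.37% for TEAD, 2.70% for the homeodomain core and 4.83% for TATAAA. PROLIF-only regions near starts held them in 4.62%, 3.16% and 5.84%, so that TATAAA was nearly as frequent there. The second were the sites of CpG island promoters. The SP/KLF site GGGCGGG was in 4.33% against 33.0% (20.4% of all near regions), the NFY site CCAATCA in 2.85% against 7.66% (5.20%), the NRF1 site GCATGCGC in 0.371% against 3.13% (1.88%) and the ETS site CCGGAAGT in 0.124% against 4.63% (2.58%). The sites TGACGTCA of CRE-binding factors and AAGATGGCG of YY1 were in 0 DIFF-only windows, and in 1.50% and 1.07% of all near regions. In CpG-poor constant regions the shares were also lower than in all constant ones, with 10.2% for SP/KLF, 5.85% for NFY, 0.698% for NRF1, 0.725% for ETS, 0.939% for TGACGTCA and 0.389% for AAGATGGCG. PROLIF-only regions near starts were low as well for SP/KLF (5.35%), NFY (2.92%), ETS (0.243%), NRF1 (0%) and AAGATGGCG (0%). They held TGACGTCA in 1.95%.

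The third were motifs whose shares lay apart in the DIFF-only and PROLIF-only regions. The AP-1 site TGANTCA, bound by FOS and JUN, was in 3.22% of DIFF-only and 27.7% of PROLIF-only regions near starts (5.85% of all near regions). The E-box CAGCTG was in 16.2% and 32.6% (17.4%), the E-box CAGATG in 13.5% and 23.8% (13.2%), and the nuclear receptor site AGGTCA in 9.28% and 20.9% (9.25%). SOX letters, ACAATG or ACAAAG, were in 30.9% and 34.8%, close to the 27.8% of CpG-poor constant regions (21.7% of all near regions). The remaining motifs (octamer ATGCAAAT, RFX site GTTGCCATG, CTCF core, MEF2 letters CTATTTTTA or CTATTTATA, STAT letters TTCCNGGAA, SRF CArG box, SMAD letters GTCTAGAC and FOXO letters TGTTTAC) were each in at most 2.10% of DIFF-only windows and at most 3.49% of all near regions. Some motifs can overlap, such as the CArG box and TAATTA or the SOX and octamer letters.

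Of 403 distinct autosomal genes in the lists used, 21 had a DIFF-only region near a start (5.21%, against 2.67% of all coding genes). A region of the main class was found for 6 of them and one of the alternative class for 15, with *Notch1* in both, and 1 gene, *Nrxn2*, had a region of the noncoding class alone. The lists were assembled with results of these data known. In the stem and progenitor list 3 of 15 genes had one, in the early neuron list 2 of 25, in the synapse list 4 of 37, in the astrocyte list 1 of 24, in the oligodendrocyte list 2 of 22 and in the axon guidance list 5 of 41.

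Among stem cell genes, *Egfr*, the receptor for epidermal growth factor, had a region in an intron (chr11:16879453-16879861) with percentiles of 1.36, 8.70 and 24.2, low in each list and lowest in replicate 1, and 112 bp from a PROLIF peak. *Hes1*, a repressor and target of Notch signalling, had 4.38, 14.7 and 18.0 (chr16:30067038-30067257). *Nr2e1*, the orphan nuclear receptor TLX that maintains adult neural stem cells, had 10.4, 35.6 and 39.0 (chr10:42578336-42578664). These 3 genes also had constant regions at their main starts. *Notch1*, the receptor itself, had 3 DIFF-only regions, the most of any coding gene. The one in the gene 1987 bp from the main start (chr2:26501662-26501977) had percentiles of 53.7, 35.7 and 49.9, and the upstream one (chr2:26519043-26519306) had 29.3, 30.6 and 34.7. Towards the other end of the gene the third (chr2:26459603-26460566), nearest to the start of *Gm13568*, had 22.4, 14.2 and 22.4. In the Notch list 2 of 24 genes (8.33%), *Notch1* and *Hes1*, had a region, against 2.67% of all coding genes. A list this short does not let the count be read, and *Hes1* is in the stem and progenitor list too.

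Among neuronal genes, *Stmn2*, a microtubule regulator of growing axons, had a region upstream of its main start (chr3:8508145-8508450, −1152 bp) with percentiles of 41.4, 26.4 and 46.9. *Reln*, which encodes the secreted guidance protein reelin, had one 411127 bp from its main start (chr5:21933438-21933869) with 2.96, 16.9 and 50.7, a wide spread between replicates. *Rims1* and *Gabbr1*, a presynaptic scaffold and a GABA-B receptor subunit, had regions at alternative starts, with percentiles from 2.80 to 41.1. For *Nrxn2*, a presynaptic adhesion protein, the region lay nearest to the antisense gene *Gm14965* (10.2, 9.18 and 33.5).

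Of the axon guidance genes, *Sema4a* is given above. *Slit3*, a repellent ligand, had 33.7, 57.6 and 77.4 (chr11:35179273-35179722) and *Robo1*, a receptor for SLIT proteins, had 29.3, 37.8 and 52.3 (chr16:73005936-73006230). *Unc5a*, a netrin receptor, had 48.5, 16.9 and 48.8, and *Sema3d* had 7.66, 16.9 and 31.5. The ranks of *Slit3*, *Robo1*, *Unc5a* and *Sema3d* were highest in the deepest library, for *Unc5a* by little. Each of these 4 genes had a constant region at its main start.

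In the glial lists, *Olig1*, a transcription factor of oligodendrocyte progenitors, had a region 1012 bp after its main start (chr16:91270573-91271202) with percentiles of 43.5, 39.5 and 59.9, 419 bp from a PROLIF peak. *Cnp*, a myelin enzyme, had 15.9, 51.0 and 52.9. *Cst3*, a protease inhibitor abundant in astrocytes, had 36.0, 50.9 and 69.6. The replicates of the last 2 genes were far apart. *C1qc*, a complement subunit of microglia, was the only gene of 14 in the microglia list with a region (22.1, 26.4 and 56.8), and the part of other cells in it was not tested. No gene of the endothelium and pericyte list (15 genes) or the ependymal list (14) had one. Against a share of 2.67% over all coding genes, lists this short, the microglia list included, do not let such counts be read.

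For signalling and cycle genes the counts stood beside a share of 2.67% over all coding genes. *Ccnd1*, which encodes cyclin D1, had a region at an alternative start (chr7:144937524-144937918) with percentiles of 66.5, 52.5 and 70.4, one of the higher ranked of the list genes, 1696 bp from a PROLIF peak. It was 1 of 28 genes (3.57%) of the cell cycle and replication list. *Smad3*, a transducer of TGF-beta signals, was 1 of 35 genes (2.86%) of the BMP and TGF-beta list. It had 41.4, 0.535 and 37.5, near the bottom of the peak list in replicate 2. *Egfr* was 1 of 22 genes (4.55%) of the mitogen receptor and ERK feedback list. None of 29 Wnt signalling genes, 28 serum response and actin genes or 23 cell cycle exit and FOXO genes had a DIFF-only region. At a share of 2.67%, lists of this length are too short for a count of 0 to be read as a lack. Of the genes that the study named as changed in the mutant, on cultures of the same kind, 0 of 10 and 1 of 15 (*Reln*) had one.

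By symbol family, the share of genes with a region was read against 2.67%. It was 5 of 25 for voltage-gated calcium channel genes (Cacn), 16 of 358 for solute carriers (Slc), 3 of 43 for collagens (Col) and 2 of 92 for potassium channels (Kcn). It was 1 of 385 for zinc finger proteins (Zfp), most of which (345) had a constant region near a start, and 0 of 1127 for olfactory receptors (Olfr), of which 28 did. The calcium channel regions were all at alternative starts and spanned percentiles from 2.32 to 58.9. Families differ in length and in the number of annotated starts, and no test was made.

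Besides *Notch1*, the other coding genes with more than 1 region had 2 each: *Gmpr*, *Itga3*, *Plin4*, *Kctd5*, *Endou*, *Eps8l2*, *Ptpru*, *Foxp1*, *Mgll*, *Osbpl7* and *Chn1*. The pair at *Ptpru*, a receptor tyrosine phosphatase, was the highest ranked of these. One (chr4:131771449-131771864) had percentiles of 57.0, 70.8 and 77.9 and the other (chr4:131797436-131797849) 57.7, 67.2 and 63.9. The pair at *Foxp1*, a forkhead factor of neuronal differentiation, lay 329896 and 1839 bp from the main start, with 47.6, 34.3 and 50.7 and with 40.1, 49.4 and 53.9. Within both pairs the percentiles of the 2 regions overlapped.

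Regions were spread over all autosomes, from 1.42% of the near regions of chromosome 10 (27 regions) to 3.43% of those of chromosome 19 (35 regions).

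To ask whether the constant sites around DIFF-only regions also differed between states, measures that the rule did not use were compared over libraries. For 365 constant main-start regions of genes with a DIFF-only region, the median percentile was set against that of 11155 constant main-start regions of other genes. The difference was −3.00, −4.12 and −2.66 percentile points in DIFF replicates 1, 2 and 4 and −3.73, −3.86 and −5.16 in PROLIF. These constant peaks thus ranked below those of other genes in all 6 libraries. The means were −3.26 ± 0.764 (SD, n = 3) in DIFF and −4.25 ± 0.790 (SD, n = 3) in PROLIF, a gap of 0.990 points (two-sided exact permutation test, p = 0.3, adjusted p = 0.4 over 3 tests), with overlapping groups.

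The width of the same constant peaks, as a percent of that at other genes, was 92.6, 95.4 and 92.9 in DIFF and 96.4, 98.0 and 92.4 in PROLIF. The means were 93.6 ± 1.58% and 95.6 ± 2.88% (SD, n = 3 each; exact permutation p = 0.4, adjusted p = 0.4), and the groups overlapped. Finally, the nearest constant region within 20 kb of a DIFF-only region was taken (541 regions) and compared with the other 38547. Its median percentile was 1.79, 0.547 and 0.824 points above the others in DIFF, and −0.647, 0.0525 and 0.366 points from them in PROLIF. Here the 3 DIFF values lay above the 3 PROLIF values, with means of 1.05 ± 0.653 and −0.0761 ± 0.518 (SD, n = 3 each). The exact permutation p was 0.1, the smallest that 3 against 3 libraries can give, and 0.3 after Benjamini-Hochberg adjustment. With lists cut to equal length this gap was −0.259. With 3 against 3 libraries none of the 3 measures could give an exact permutation p under 0.1. The p-values cover only the spread of these libraries, whose technical part was not measured.

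**Figure D5:**
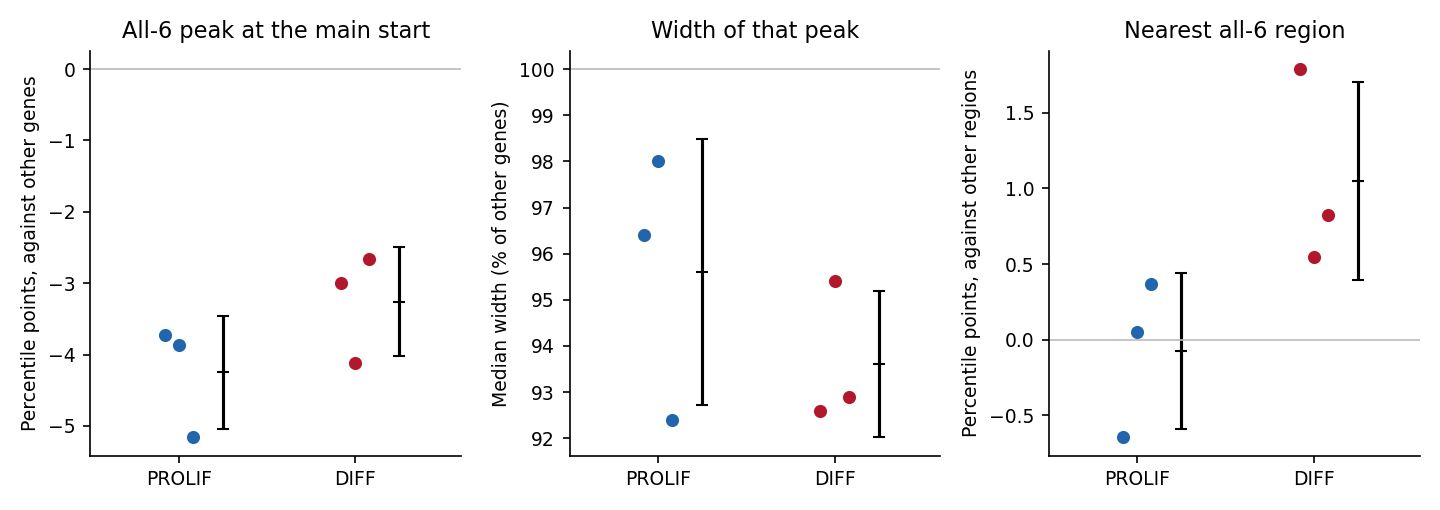
Values of each library (points) with the group mean and SD (bars, n = 3) in PROLIF and DIFF. From left to right are the percentile difference of constant main-start peaks at genes with a DIFF-only region (points), their width as a percent of other genes, and the percentile difference of the nearest constant region (points). The groups overlap in the left and middle panels and are separate in the right one (exact p = 0.1).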

How the data were processed

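ATAC-seq peak lists of 6 libraries (3 PROLIF, 3 DIFF), grouped by the labels, were analysed. The authors clipped and trimmed reads (Cutadapt, Trimmomatic), mapped them to GRCm38 (Bowtie2) and called narrow peaks in each library (MACS2, false discovery rate 0.05). Tool versions, the read extension and any blacklist are not given in the sources used here, and each can move peak edges. Fold enrichment, a ratio of pileup to the local background of each library, and −log10 p and q against that background were deposited by the authors. The score deposited by the authors was not used. Depth is stood for by the background in reads, solved from fold and p under the caller's Poisson model and whole within 0.02 reads for at least 99.9879% of the peaks solved.

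Autosomal peaks overlapping by 1 bp or more were merged. The percentile of a peak is its rank by −log10 p in its own list. Starts came from GENCODE M21 and were within 3 kb of a region's edge. The main start was that of 1 transcript per coding gene, by APPRIS tag, CCDS, support level and length. Motifs were searched on both strands in 200 bp of RefSeq GRCm38.p6 sequence around the best summit. Named regions were the 10 of each class with the highest lowest-percentile, the 10 closest to a main start with lowest percentile over 50 (here the same regions), genes of the lists, genes with 2 or more regions and the 5 on each side of the distance limit. Some genes that this rule names are not reported here. The members and lists were chosen with earlier results of these data known. States were compared only on constant regions, by two-sided exact permutation over libraries. Functions were tested on simulated data. The tools were scipy 1.17.1, pandas 2.3.3, numpy 2.4.6 and matplotlib 3.10.9 under Python 3.11.15, with samtools 1.23.1 and pysam 0.24.0 for the genome.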

Additional observations from a re-analysis of the deposited data

How the results depend on the processing

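The number of DIFF-only regions near starts moved with the strictness of the rule. It was 418 with the strongest 20000 peaks of each list and 387 within 1 kb, and 736 to 894 with q of 0.01 or 0.001, lists of equal length, a cover of 50% or distance from the summit. Leaving out 1 library gave 876 to 1474 regions, and the count passed 1.5 times the value reported without DIFF replicate 1 (1315), DIFF replicate 2 (1233) or PROLIF replicate 1 (1474). The share nearest a main start, 14.5%, was 33.7% with the strongest 20000 peaks, 25.7% where any main start within 3 kb took priority, and 14.2% to 15.3% without 1 library. The share nearest a noncoding start, 35.5%, was 39.4% with lists of equal length, 23.2% with the strongest 20000 peaks and 35.4% to 38.0% without 1 library.

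Of the comparisons of constant regions, the gap in main-start percentile kept its direction in all 11 alternatives (0.166 to 1.96 without 1 library). The width gap of -1.98 turned to 0.125 with lists of equal length and to 0.527 without PROLIF replicate 1, and ran from -1.44 to 0.527 without 1 library. The gap of the nearest constant region turned to -0.259 with lists of equal length (exact p = 0.7) and ran from 0.582 to 2.27 without 1 library. Within the low and high ranges of input data numbers in the peak names it was 1.93 and 0.633, with 1 library in one arm. With so few libraries no alternative could give an exact p under 0.1, so the p-values do not measure robustness. The causes were not tested.

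Replicate numbers gave no established pairs. Deviations of same-numbered libraries correlated at 0.0550, 0.153 and 0.0122 over 39088 constant regions, which are not independent. With the replicate block, 2704 regions had a peak in DIFF alone in 2 or more same-numbered pairs and in PROLIF alone in no pair, and the 3 tests had sign-flip p of 0.5, 0.5 and 0.25, where 0.25 is the smallest possible.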
